A study of Mus musculus with 3 samples.

Results

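The comparison described here set the RNA sequencing library labelled ARPC4 ko directly against the library labelled Nrf2-EGFP, 2 of the 3 libraries in the series, each made from mouse keratinocytes. Of 41214 gene identifiers counted in both, 11745 reached 1 CPM (counts divided by the scaled library size) in at least 1 of them and were compared. Each level below is a CPM scaled with TMM factors (trimmed mean of M values, a correction for the composition of a library). Each fold is the ratio of 2 such levels. A gene is called where its log2 ratio of CPM + 0.5 is at least 1 in size and the exact 95% counting interval of its ratio, given in parentheses, excludes 1. With 1 library per genotype there was no replicate check, so genotypes were not tested and p-values are not given. The intervals cover counting error only, and since the reads carry no molecular identifiers they may include copies of 1 molecule.

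The cells were exponentially growing keratinocytes of the C57BL/6 strain, immortalised with SV40, and both genotypes shared these features with the wt library. Keratinocytes are the epithelial cells that build the epidermis. All 3 titles carry the same line name, MI338. The ARPC4 ko title also holds Cre, the recombinase used to delete floxed genes, and the Nrf2-EGFP title holds High. What High refers to, how the fusion is driven, which part of Arpc4 was deleted and whether a library came from 1 clone or several are left unstated in the labels. The series title links loss of Arp2/3 in epidermis to a psoriasis-like disease and to overactive Nrf2. Set side by side, the 2 altered genotypes show in which genes the libraries differ. The wt library entered no ratio and no call, and its level stands beside named genes as a description.

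The Arp2/3 complex binds the side of an actin filament and starts a new branch, which pushes the cell membrane forward and helps form cell contacts. ARPC4 is 1 of its core subunits. Nrf2 (gene Nfe2l2) is a transcription factor that is held back by Keap1 in resting cells and, when released, switches on antioxidant and detoxification genes. In keratinocytes Nrf2 is also known to drive some cornified envelope and stress keratin genes. Keratinocytes themselves make chemokines, complement and interferon-induced proteins when inflamed, mostly through NF-kB and STAT transcription factors.

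The ARPC4 ko library held 23033863 gene counts and the Nrf2-EGFP library 25723959, which puts 3 counts at 0.125 and 0.121 CPM. All 10 keratinocyte markers were measured in both, and their summed level was 15668 CPM in ARPC4 ko, 20411 in Nrf2-EGFP and 26239 in wt. The part of this gap in the differences below was not tested. Of 7 fibroblast markers, Col1a2, Col3a1, Thy1, Dcn and Lum had 0 counts in both compared libraries, and the sum of all 7 was 1.58 CPM in ARPC4 ko and 2.51 in Nrf2-EGFP. None of 7 immune markers reached 1 CPM, and their sums were 0.125 and 0.0810 CPM. Of 6 melanocyte markers only Mitf did, and Tyr, Tyrp1 and Dct were at 0. In bulk RNA, fewer cells of a type and less RNA per cell cannot be told apart.

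The targeted genes came first. Arpc4 (ENSMUSG00000079426, chromosome 6, 113378115 to 113390448, mm10) had 61.8 CPM in ARPC4 ko, 99.0 in Nrf2-EGFP and 95.4 in wt. It was 1.6-fold (1.5 to 1.71) higher in Nrf2-EGFP and was not called, with 1483 counts left in the library labelled ARPC4 ko. The count covers the whole gene, so it does not tell an intact transcript from one that lacks an exon. Nfe2l2 (ENSMUSG00000015839, chromosome 2, 75675513 to 75704641) had 182 CPM in ARPC4 ko, 167 in Nrf2-EGFP and 228 in wt. It was thus 1.09-fold (1.04 to 1.13) higher in the library that does not carry the fusion. Reads of a fusion that lacks the gene's untranslated parts, or that stems from another species, may be missing from this count. Since Nfe2l2 went against its label, ARPC4 ko and Nrf2-EGFP stand below for the libraries so labelled.

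Most genes had nearly the same level in both libraries, and 353 were called, 3.01% of those compared. ARPC4 ko was higher for 241 of them (2.05% of all genes) and Nrf2-EGFP for 112 (0.954%). The median log2 ratio, ARPC4 ko over Nrf2-EGFP, was -0.01, and the quartiles were -0.17 and 0.17. By the log2 ratio, 90.7% of genes lay within 1.5-fold. By the same measure, 26 called genes were at least 4-fold higher in ARPC4 ko and 8 in Nrf2-EGFP. The log2 ratio understates differences of low genes. Some called genes outside these counts, such as Oas1a and Tll1, therefore have a fold above 4 below. The counting interval by itself excluded 1 for 55.3% of all genes. Within 5% of the filter, 69 genes lay just above it and 48 just below, and the latter were left out.

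**Figure D1:**
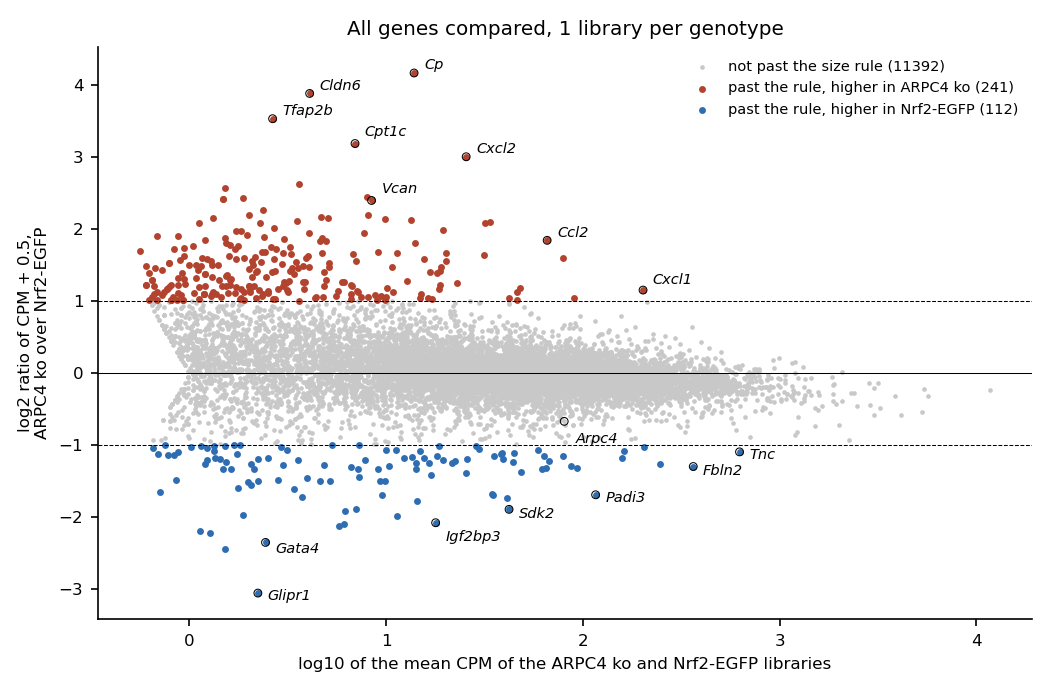
Each point is 1 of 11745 genes, with the log10 of its mean CPM over the 2 libraries on the x axis and its log2 ratio (CPM + 0.5, ARPC4 ko over Nrf2-EGFP) on the y axis. Dashed lines mark a log2 ratio of 1 and -1. The 241 red points above the upper line spread furthest at low levels, where Cp, Cldn6 and Tfap2b stand highest, and the 112 blue points reach to Tnc and Fbln2 at the high end.

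Genes higher in ARPC4 ko were mostly of low level, and genes higher in Nrf2-EGFP were spread over the whole range. Of the 241, 188 stayed under 10 CPM in their higher library, against 53 of the 112. Among genes between 1 and 3 CPM, 97 were higher in ARPC4 ko and 28 in Nrf2-EGFP, together 11.4% of that class. Among genes of 100 CPM or more the order turned, with 4 higher in ARPC4 ko and 10 higher in Nrf2-EGFP, together 0.501%. Those 4 were the chemokine genes Cxcl1 and Ccl2 and, named after their values were seen, Gpc4 (a glypican, a cell surface heparan sulfate proteoglycan) and Fam102a. Gpc4 had 120 CPM in ARPC4 ko, 39.4 in Nrf2-EGFP and 37.4 in wt, a 3.04-fold (2.83 to 3.27) difference. Its neighbour on the X chromosome, Gpc3, went the same way, with 77 counts in ARPC4 ko and 11 in Nrf2-EGFP.

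**Figure D2:**
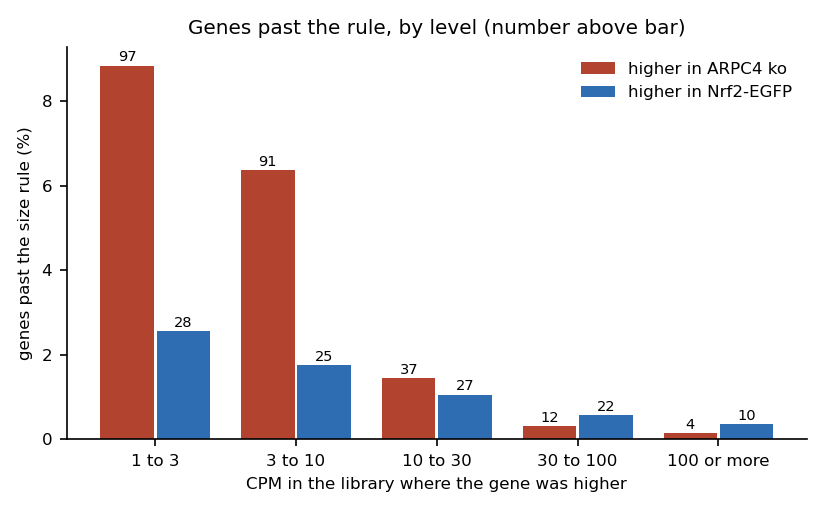
Bars give the share of genes (%) called in each class of level, by CPM in the library where the gene was higher, with the number of genes above each bar. Red bars are genes higher in ARPC4 ko and blue bars genes higher in Nrf2-EGFP. From 97 and 28 genes at 1 to 3 CPM the numbers change to 4 and 10 at 100 CPM or more.

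The level in wt placed the called genes in different ways. For genes higher in ARPC4 ko, wt lay between the 2 libraries or level with either for 133, below Nrf2-EGFP for 88 and above ARPC4 ko for 20. For genes higher in Nrf2-EGFP, wt lay between or level with either for 48, below ARPC4 ko for 41 and above Nrf2-EGFP for 23. Most of the 15 highest and 15 lowest log2 ratios among called genes of 10 CPM or more are described next.

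Cp, the gene of ceruloplasmin, a copper-carrying ferroxidase of plasma, had the largest log2 ratio, 4.17 (ENSMUSG00000003617, chromosome 3, 19957054 to 20009145). It had 641 counts in ARPC4 ko (26.7 CPM), 25 in Nrf2-EGFP (1.01 CPM) and 25 in wt (1.13 CPM), a ratio of 26.4 (17.7 to 41.1). High in a single library, it was near the filter in the other two. Cpt1c, a brain-type member of the carnitine palmitoyltransferase family, showed the same shape with 12.9 CPM in ARPC4 ko, 0.972 in Nrf2-EGFP and 1.53 in wt (13.3-fold, 8.77 to 21.1). Osr1, a zinc finger factor of mesoderm development, had 13.9, 2.15 and 2.66 CPM in the same order (6.47-fold, 4.83 to 8.82). Aldh2, the mitochondrial aldehyde dehydrogenase that clears acetaldehyde, had 54.7 CPM in ARPC4 ko, 12.4 in Nrf2-EGFP and 13.4 in wt (4.41-fold, 3.89 to 5.02). Evc, a ciliary protein of Hedgehog signalling, had 31.2, 7.49 and 6.49 CPM (4.17-fold, 3.54 to 4.92). Its neighbour and partner Evc2 was also called, at 2.42-fold (2.12 to 2.76).

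In a smaller set ARPC4 ko was close to wt and Nrf2-EGFP was the low library. Irx2, an Iroquois homeobox factor, had 52.0 CPM in ARPC4 ko, 11.8 in Nrf2-EGFP and 47.3 in wt (4.40-fold, 3.87 to 5.01). Vcan, the matrix proteoglycan versican, had 14.5, 2.35 and 12.8 CPM (6.18-fold, 4.67 to 8.31). Creld1, a cell adhesion protein with EGF-like domains, had 14.1, 4.05 and 11.8 CPM (3.48-fold, 2.78 to 4.39). Decr1, a mitochondrial enzyme that helps to oxidise unsaturated fatty acids, lay between, with 12.5 CPM in ARPC4 ko, 2.87 in Nrf2-EGFP and 6.80 in wt (4.35-fold, 3.35 to 5.72). Mill1, an MHC class I-like protein, was lower in wt than in either library. It had 13.6 CPM in ARPC4 ko, 2.59 in Nrf2-EGFP and 1.08 in wt (5.26-fold, 4.01 to 6.99). Spp1 (osteopontin, a secreted phosphoprotein that binds integrins) was high in ARPC4 ko alone, with 16.5, 3.36 and 4.82 CPM (4.90-fold, 3.86 to 6.29).

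On the other side, most of the 15 genes highest in Nrf2-EGFP had a wt level closer to ARPC4 ko. Igf2bp3, an RNA-binding protein of fetal tissues, had 6.5 CPM in ARPC4 ko, 29.2 in Nrf2-EGFP and 6.98 in wt (4.49-fold, 3.77 to 5.37). Sdk2, an adhesion molecule of the immunoglobulin superfamily, had 17.5, 66.8 and 21 CPM (3.80-fold, 3.42 to 4.24). Cd80, the costimulatory ligand of CD28 and CTLA-4, had 18.7, 63.7 and 21.3 CPM (3.41-fold, 3.07 to 3.80). Each of these was high in Nrf2-EGFP alone. Tll1, a metalloprotease of the tolloid family that processes procollagen and frees BMPs, had 4.25, 18.4 and 6.58 CPM (4.32-fold, 3.48 to 5.41). Lpar1, a receptor for lysophosphatidic acid, had 4.21, 14.8 and 5.86 CPM (3.51-fold, 2.81 to 4.42). The same shape was measured for Cmah, Rnf128 and Ctla2a, at 2.96-fold to 4.38-fold, and Ctla2a is uncertain because it shares reads with its near copy Ctla2b.

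Another set was low in ARPC4 ko alone. Upk1b, a tetraspanin of urothelial plaques, had 2.0 CPM in ARPC4 ko, 10.2 in Nrf2-EGFP and 12 in wt (5.12-fold, 3.75 to 7.12). Prune2 had 16.3, 53.7 and 56.0 CPM (3.30-fold, 2.95 to 3.71). Igf2bp1, a relative of Igf2bp3, had 16.2, 53.1 and 46.1 CPM (3.28-fold, 2.92 to 3.68). For Chl1, a neural adhesion molecule, and Bcat1, the cytosolic branched-chain aminotransferase, wt was higher than both. Chl1 had 4.59 CPM in ARPC4 ko, 14 in Nrf2-EGFP and 31.0 in wt, and Bcat1 had 4.92, 14.9 and 50.9.

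**Figure D3:**
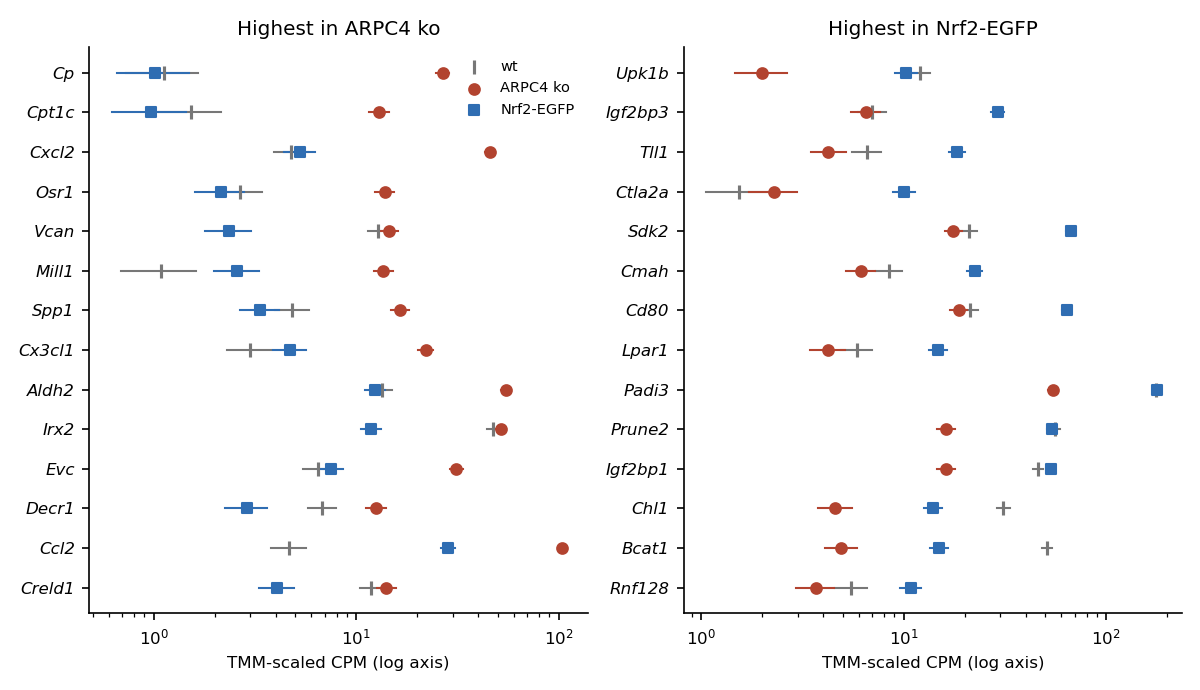
Levels (TMM-scaled CPM, log axis) of 14 of the 15 genes highest in ARPC4 ko (left) and in Nrf2-EGFP (right), for the ARPC4 ko (red circle), Nrf2-EGFP (blue square) and wt (grey tick) libraries, 1 each. Lines are exact 95% Poisson intervals of the counts and cover counting error only. The wt ticks sit near Nrf2-EGFP for Cp, Cpt1c and Aldh2, near ARPC4 ko for Vcan, Irx2, Sdk2 and Cd80, and near Nrf2-EGFP for Padi3 and Prune2.

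Genes with 0 counts in 1 library and at least 20 in the other were found on 1 side only. Tfap2b, an AP-2 transcription factor, had 127 counts in ARPC4 ko, 0 in Nrf2-EGFP and 16 in wt, which makes it at least 43.6-fold higher in ARPC4 ko when the 0 is set to the floor of 3 counts. Cd34, a surface marker of hair follicle bulge cells and of blood progenitors, had 33 counts against 0 (at least 11.3-fold). Below 10 CPM, Cldn6, a claudin of embryonic epithelia, had 194 counts in ARPC4 ko and 2 in Nrf2-EGFP (interval of the ratio 27.3 to 831). Vim, the intermediate filament of mesenchymal cells, had 68 counts against 3 (23.3-fold, 7.65 to 116), and Hoxa11 had 71 against 2. Angpt1, a ligand of the receptor Tie2, and Lama4, a laminin chain of vessels, were called with 1.67 and 2.46 CPM in ARPC4 ko and 2 and 4 counts in Nrf2-EGFP. The largest difference towards Nrf2-EGFP was in Glipr1, named after its values were seen, with 2 counts in ARPC4 ko and 108 in Nrf2-EGFP (52.4-fold, 14.2 to 439).

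Interferon-stimulated genes, which block virus growth and present antigen after interferon binds its receptor, were shifted as a group towards ARPC4 ko. Of 51 listed genes 39 were measured, 38 of them had a log2 ratio above 0, 13 were called higher in ARPC4 ko, beside 2.05% of all genes, and none in Nrf2-EGFP. A pseudocount of 2 CPM left 2 of these calls and a filter of 10 CPM left 3. The measured members had a median log2 ratio of 0.78 beside -0.01 for all genes, and 0.57 at its lowest under the other settings tried. Levels were low for most of the called members, so each rests on few counts. Usp18, a protease that strips ISG15 from proteins and dampens interferon signalling, had 6.29 CPM in ARPC4 ko, 1.70 in Nrf2-EGFP and 1.31 in wt (3.70-fold, 2.61 to 5.34). Oas1a, an enzyme that senses double-stranded RNA, had 2.75, 0.445 and 0.225 CPM (6.18-fold, 3.24 to 13). Ifit1, which binds viral RNA ends, had 27 counts in ARPC4 ko and 4 in Nrf2-EGFP (6.95-fold, 2.42 to 27.3). The guanylate-binding protein Gbp2 and Irf9, the DNA-binding subunit of the interferon-activated complex ISGF3, had higher levels. Gbp2 had 20.7 CPM in ARPC4 ko, 9.39 in Nrf2-EGFP and 4.82 in wt (2.20-fold, 1.88 to 2.58). Irf9 had 20.1, 9.51 and 9.15 CPM (2.12-fold, 1.81 to 2.48). Stat2, which binds it in that complex, was above 1 without a call (1.68-fold, 1.48 to 1.89). Samd9l was the member below 0, and Ifitm3, with 340 CPM in ARPC4 ko, 280 in Nrf2-EGFP and 98.4 in wt, differed by only 1.21-fold (1.18 to 1.25).

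Interferon acts through short promoter motifs. The promoters of 4 called genes, chosen among those with a match, are printed here because the group was shifted to 1 side. The interferon-stimulated response element was searched as GAAA, any 2 bases and GAAA, on both strands, in windows of 250 bases before to 50 bases after each start. It was in 3.44% of 32851 RefSeq windows (GRCm38.p6). Counted per gene with a window, it was in 3.48% of 9190 compared genes and in 7.07% of 184 called higher in ARPC4 ko. Of the 31 measured interferon-stimulated genes that had a window, 19 had it, as did 7 of the 10 called ones. Those 7 are part of the 13 genes behind the 7.07%, so that share is no separate observation. The called genes Irf9, Oasl2 and Xaf1 had no match in their windows. Below are the 120 bases before the start of each gene, 5′ to 3′ on its own strand, with every match in capitals. They lie at chr19:34640769-34640888 (plus strand), chr5:120907526-120907645 (minus), chr3:142620543-142620662 (plus) and chr11:58214857-58214976 (plus), in the order printed.
Ifit1: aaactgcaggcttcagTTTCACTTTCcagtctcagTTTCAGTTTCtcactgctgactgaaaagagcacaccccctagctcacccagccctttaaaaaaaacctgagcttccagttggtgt
Oas1a: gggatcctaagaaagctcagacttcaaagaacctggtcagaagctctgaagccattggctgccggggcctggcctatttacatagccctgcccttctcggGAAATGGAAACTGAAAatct
Gbp2: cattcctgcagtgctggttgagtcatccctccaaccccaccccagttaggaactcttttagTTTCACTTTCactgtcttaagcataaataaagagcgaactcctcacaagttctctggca
Irgm2: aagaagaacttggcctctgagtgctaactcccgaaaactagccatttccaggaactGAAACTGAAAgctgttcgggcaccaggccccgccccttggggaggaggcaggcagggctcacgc
A match describes the letters in the window and does not show that a factor was bound there.

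Antigen presentation by MHC class I, which shows peptides to cytotoxic T cells, leaned the same way in most members. Of 22 measured genes 18 had a log2 ratio above 0 (median 0.48). ARPC4 ko was higher for 4 called genes, beside 2.05% of all genes, and Nrf2-EGFP for none. A filter of 10 CPM left 1 of these calls and a pseudocount of 2 CPM left 2. The summed level of the list was 2867 CPM in ARPC4 ko and 2862 in Nrf2-EGFP. H2-Q4, a non-classical class I heavy chain, had 28.2 CPM in ARPC4 ko, 9.84 in Nrf2-EGFP and 11.7 in wt (2.87-fold, 2.47 to 3.34). H2-Q7 was 5.97-fold (3.89 to 9.53) and H2-Q6 5.26-fold (2.54 to 12.2) higher, although reads of the near-identical H2-Q genes may be split or lost. Nlrc5, the activator of class I transcription, had 48 counts in ARPC4 ko and 8 in Nrf2-EGFP (6.18-fold, 2.90 to 15.1). Tap1, the peptide transporter, had 22.8, 12.2 and 13.9 CPM in ARPC4 ko, Nrf2-EGFP and wt and missed the call at 1.86-fold (1.61 to 2.15). STAT, JAK and SOCS genes had no called member of 31, and 24 of them had a log2 ratio above 0 (median 0.17).

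Chemokines guide leukocytes along a gradient. Of 17 measured chemokines and colony-stimulating factors, 6, all chemokines, were called higher in ARPC4 ko, beside 2.05% of all genes. None was called higher in Nrf2-EGFP. The median log2 ratio was 0.54, or 0.33 over 22 genes with no filter on low counts. Cxcl1 and Cxcl2, ligands of CXCR2 that attract neutrophils, lie side by side at chromosome 5, 90891241 to 90905938. Cxcl1 had 279 CPM in ARPC4 ko, 125 in Nrf2-EGFP and 36.9 in wt (2.23-fold, 2.13 to 2.32). Cxcl2 had 45.8, 5.26 and 4.78 CPM (8.70-fold, 7.24 to 10.5). Thus Cxcl1 was above wt in both libraries, whereas Cxcl2 was high in ARPC4 ko alone. Ccl2, which attracts monocytes, had 103, 28.4 and 4.64 CPM (3.63-fold, 3.34 to 3.96). Cx3cl1, a membrane-bound chemokine, had 22.1, 4.70 and 2.97 CPM (4.70-fold, 3.84 to 5.80). Ccl20, which draws CCR6-bearing T cells and dendritic cells, had 17.5, 5.18 and 12.8 CPM (3.37-fold, 2.76 to 4.14). Cxcl10, an interferon-induced chemokine, had 49 counts against 17 and is also in the interferon list. Cxcl5, with 437 CPM in ARPC4 ko, 280 in Nrf2-EGFP and 19.6 in wt, was 1.56-fold (1.51 to 1.61) higher in ARPC4 ko without a call.

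NF-kB, the transcription factor that many cytokines switch on, binds kappaB elements. That motif, searched as GGG, any 2 bases and TTTCC on both strands in the same windows, was in 1.63% of all windows. Counted per gene with a window, it was in 2.05% of compared genes and in 3.80% of those called higher in ARPC4 ko. Of the 12 measured chemokine and colony-stimulating factor genes that had a window, 5 had it, as did 3 of the 5 called ones. The 7 genes behind the 3.80% include those 3, so that share is no separate observation. Those 3 are printed as above, from chr5:90891125-90891244, chr5:90903779-90903898 and chr1:83116646-83116765, each on the plus strand. Capitals mark the kappaB matches.
Cxcl1: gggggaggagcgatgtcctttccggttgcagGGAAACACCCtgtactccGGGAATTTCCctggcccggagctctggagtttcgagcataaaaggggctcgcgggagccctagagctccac
Cxcl2: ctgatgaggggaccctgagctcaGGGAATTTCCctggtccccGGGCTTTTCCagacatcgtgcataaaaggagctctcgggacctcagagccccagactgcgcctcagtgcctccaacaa
Ccl20: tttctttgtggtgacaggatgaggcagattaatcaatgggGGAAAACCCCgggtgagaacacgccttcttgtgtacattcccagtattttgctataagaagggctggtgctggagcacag
Among NF-kB subunits and feedback genes, 19 of 23 had a log2 ratio above 0 (median 0.46). Of the 23, 2 were called higher in ARPC4 ko, beside 2.05% of all genes. Icam1, the adhesion molecule that binds leukocytes, had 67.0 CPM in ARPC4 ko, 29.3 in Nrf2-EGFP and 24.5 in wt (2.29-fold, 2.09 to 2.5). Tnip3, an inhibitor that binds A20, had 102 counts against 12 (8.75-fold, 4.80 to 17.5). The feedback inhibitor Nfkbia was 1.6-fold (1.5 to 1.70) higher in ARPC4 ko and Birc3 1.99-fold (1.62 to 2.46), without calls.

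Complement components and inducible innate effectors had 5 of 12 measured genes called higher in ARPC4 ko, beside 2.05% of all genes. None was called higher in Nrf2-EGFP. Their median log2 ratio was 0.94, or 0.52 over 19 genes with no filter on low counts. With a filter of 10 CPM or a pseudocount of 2 CPM, 3 were called. Besides Cp and Mill1 these were Tlr2, Nos2 and Lcn2. Tlr2, a receptor for bacterial lipoproteins, had 12.9 CPM in ARPC4 ko, 5.87 in Nrf2-EGFP and 5.63 in wt (2.19-fold, 1.80 to 2.69). Nos2, the inducible nitric oxide synthase, had 4.63 and 1.30 CPM in ARPC4 ko and Nrf2-EGFP (3.57-fold, 2.39 to 5.47). Lcn2, an iron-trapping lipocalin, had 40 counts against 5 (8.24-fold, 3.25 to 26.7). C3, the central complement component, had 283, 142 and 21.7 CPM in ARPC4 ko, Nrf2-EGFP and wt and missed the call at 1.99-fold (1.91 to 2.07). Of 24 measured psoriasis-associated genes, a list that shares members with those above, 4 were called. All were higher in ARPC4 ko (Lcn2, Cxcl1, Ccl20 and Nos2), beside 2.05% of all genes, and a filter of 10 CPM left 2. The median of this list was only 0.17. The interleukin 1 family and epithelial alarmins had no called member of 12 and a median of -0.23, which turned to 0.28 when only the 6 genes of at least 10 CPM were kept.

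**Figure D4:**
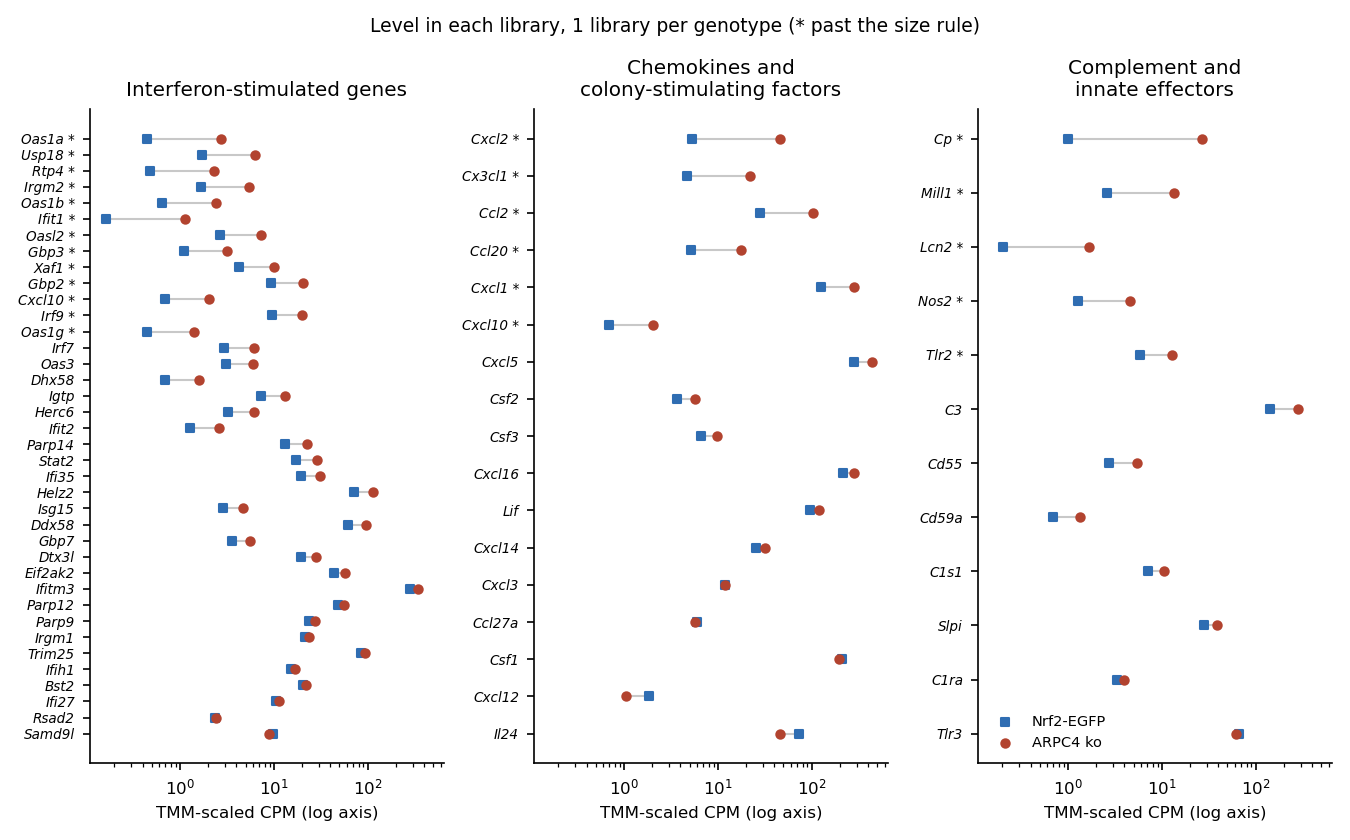
Levels (TMM-scaled CPM, log axis) of 38 of the 39 measured interferon-stimulated genes and of every measured chemokine or colony-stimulating factor, complement or innate effector gene in ARPC4 ko (red circle) and Nrf2-EGFP (blue square), 1 library each. Asterisks mark called genes. The red circle lies to the right for 37 of 38, 13 of 17 and 11 of 12 genes.

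Basement membrane and matrix genes leaned towards Nrf2-EGFP. Of 31 measured genes 23 had a log2 ratio below 0 (median -0.37), and 3 were called in each direction. Of all genes, 2.05% were called higher in ARPC4 ko and 0.954% in Nrf2-EGFP. Tnc (tenascin C), a matrix glycoprotein of wounds, had 398 CPM in ARPC4 ko, 853 in Nrf2-EGFP and 244 in wt (2.14-fold, 2.09 to 2.20). Fbln2 (fibulin 2), which links basement membrane and elastic fibres, had 210, 518 and 98.8 CPM (2.47-fold, 2.39 to 2.55). Sparc, a collagen-binding matrix protein, had 2.17, 7.0 and 1.80 CPM (3.25-fold, 2.37 to 4.52). For these 3 genes, ARPC4 ko was above wt and Nrf2-EGFP higher still. Fn1, fibronectin, an abundant member chosen after its values were seen, came close to a call with 1.83-fold (1.80 to 1.86) in favour of Nrf2-EGFP. Vcan, Lama4 and Efemp2 (2.37-fold, 1.94 to 2.89) went the other way.

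Matrix proteases and their inhibitors were divided. Of 29 measured genes, 5 were called higher in ARPC4 ko and 2 in Nrf2-EGFP, beside 2.05% and 0.954% of all genes. The median log2 ratio of -0.01 changed sign with scaling to total counts (0.10) or upper quartiles (0.01). A filter of 10 CPM left 2 called in each direction. Mmp13, a collagenase, had 30.4 CPM in ARPC4 ko, 9.96 in Nrf2-EGFP and 2.61 in wt (3.05-fold, 2.64 to 3.54). Mmp3 (stromelysin 1) was 3.60-fold (2.54 to 5.21) higher in ARPC4 ko, and Serpine2, an inhibitor of thrombin and urokinase, 3.74-fold (2.71 to 5.24). Timp3 was 2.08-fold (1.89 to 2.28) higher in ARPC4 ko and its relative Timp1 2.19-fold (2.0 to 2.40) higher in Nrf2-EGFP. Serpinb2, an inhibitor of plasminogen activators, had 96.0, 219 and 240 CPM and was low in ARPC4 ko alone (2.28-fold, 2.17 to 2.40). In the TGF-beta and activin list, Bmp2, Ltbp2 and Tgfb3 were called higher in ARPC4 ko, beside 2.05% of all genes. Bmp7 was called 2.26-fold (2.04 to 2.51) higher in Nrf2-EGFP, beside 0.954%. Bmp2, Ltbp2 and Tgfb3 lay under the filter of 10 CPM, and 1 of them was called with a pseudocount of 2 CPM. The median log2 ratio of the list over 34 genes was -0.01, and 0.11 with scaling to total counts.

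Actin and adhesion lists had 0 or 1 called gene each, beside 3.01% of all genes called in either direction. Lists of 10 to 36 measured genes are too short to tell such counts from that share. The 10 Arp2/3 subunits had a median log2 ratio of -0.12 and no call, and Arpc4 was the lowest. After it came Actr2, which had 567 CPM in ARPC4 ko, 680 in Nrf2-EGFP and 723 in wt (1.20-fold, 1.17 to 1.23). None of 26 regulators of the complex was called. Among 16 formins and other nucleators, which build unbranched filaments, Fmnl3 was called with 25.9 CPM in ARPC4 ko, 11.3 in Nrf2-EGFP and 15.7 in wt (2.30-fold, 2.0 to 2.66). The 36 genes of actin cytoskeleton and SRF targets had no call, 27 of them below 0 (median -0.14). Flna (filamin A, an actin crosslinker) was 1.37-fold (1.36 to 1.39) higher in Nrf2-EGFP. Of 24 YAP and TEAD targets, a group that responds to spreading and tension, 18 were below 0 (median -0.19). Ccn2 was the called one, with 37.8, 80.1 and 20.3 CPM (2.12-fold, 1.96 to 2.29). Of 30 integrin and focal adhesion genes 24 were below 0 (median -0.14), whereas Itgb8, an integrin that activates TGF-beta, was called higher in ARPC4 ko (2.17-fold, 1.75 to 2.71). With scaling to total counts the medians were -0.01 for Arp2/3 subunits and -0.03 for actin cytoskeleton and SRF targets. They were -0.07 for YAP and TEAD targets and -0.03 for integrin and focal adhesion genes.

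Cell adhesion and lineage markers added single calls. Cdh2 (N-cadherin) had 35.0 CPM in ARPC4 ko, 89.5 in Nrf2-EGFP and 21.7 in wt (2.56-fold, 2.36 to 2.77). Twist1, a transcription factor of mesenchymal cells, had 13 counts in ARPC4 ko and 47 in Nrf2-EGFP, and thus went with Cdh2 and against Vim. The 10 measured fibroblast and mesenchymal genes had a median log2 ratio of -0.06, or 0.05 with scaling to total counts. Tubb3, a tubulin of neurons, had 52.8, 133 and 154 CPM (2.52-fold, 2.36 to 2.69). Mal, a membrane raft protein, had 144, 348 and 121 CPM (2.41-fold, 2.31 to 2.51). Prkg2, a cGMP-dependent kinase, was 2.04-fold (1.96 to 2.13) and Rnf145, a sterol-responsive ubiquitin ligase, 2.13-fold (2.03 to 2.24) higher in Nrf2-EGFP. With scaling to total counts Tnc, Prkg2, Rnf145 and Ccn2 lost their calls.

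Epidermal differentiation genes did not share a direction, and most measured genes of the cornified envelope had lower values in ARPC4 ko than in Nrf2-EGFP. The cornified envelope is the crosslinked protein shell of dead surface cells. Of 45 matched genes of this list 11 were measured, and 9 of these had a log2 ratio below 0 (median -0.84, or -0.22 at its nearest to 0 under the other settings). Nrf2-EGFP was higher for 3 called members, and for 1 with a filter of 10 CPM, beside 0.954% of all genes. Sprr1b, a small proline-rich envelope protein, had 3.88 CPM in ARPC4 ko, 10.6 in Nrf2-EGFP and 64.3 in wt (2.73-fold, 2.14 to 3.49). Sprr2k was 5.30-fold (3.83 to 7.48) higher in Nrf2-EGFP, with the reserve that Sprr2 genes share reads, and Lce1g had 6 counts against 28. Peptidylarginine deiminases turn arginine into citrulline in filaggrin, keratins and histones. Both measured members were called higher in Nrf2-EGFP, beside 0.954% of all genes. Padi3 had 54.5, 178 and 176 CPM (3.26-fold, 3.06 to 3.47) and its neighbour Padi4 50.4, 124 and 83.4 CPM (2.47-fold, 2.31 to 2.64), at chromosome 4, 140745865 to 140810648. Both were lowest in ARPC4 ko.

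Suprabasal markers were mixed. Of 23 measured genes 12 were above 0 (median log2 ratio 0.04, and -0.28 among the 13 genes of at least 10 CPM). Zfp750, a transcription factor that drives terminal differentiation, had 6.75 CPM in ARPC4 ko, 1.38 in Nrf2-EGFP and 16.7 in wt (4.91-fold, 3.37 to 7.33). Endou went the other way, with 3 counts in ARPC4 ko and 60 in Nrf2-EGFP. Abca12, which loads lipids into lamellar granules, had 35.6, 60.4 and 186 CPM (1.70-fold higher in Nrf2-EGFP, 1.56 to 1.85). Tgm1, the transglutaminase of the envelope, had 27.2, 15.7 and 11.8 CPM (1.73-fold higher in ARPC4 ko, 1.52 to 1.97). The 4 stress keratins, induced in wounds and in psoriasis, were all below 0 (median -0.32) without a call. Krt6a had 1128 CPM in ARPC4 ko, 1888 in Nrf2-EGFP and 2969 in wt, a 1.67-fold (1.65 to 1.70) difference. The basal keratins Krt5 (1.46-fold, 1.44 to 1.47) and Krt14 (1.51-fold, 1.49 to 1.52) were likewise higher in Nrf2-EGFP and highest in wt.

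NRF2 targets leaned slightly towards Nrf2-EGFP, and none was called there. Of 43 measured targets 34 had a log2 ratio below 0, with a median of -0.24 that stayed between -0.27 and -0.13 under the other settings. Endoplasmic reticulum chaperones (-0.26) and cholesterol genes (-0.33) had medians further below 0. The summed level of all 57 matched targets was 4624 CPM in ARPC4 ko, 5599 in Nrf2-EGFP and 5877 in wt, and thus highest in wt. Gclc, the catalytic subunit of glutathione synthesis, had 66.7 CPM in ARPC4 ko, 111 in Nrf2-EGFP and 91.5 in wt (1.66-fold, 1.56 to 1.77). Gsta4, a glutathione transferase for lipid aldehydes, had 15.2, 26.8 and 7.93 CPM (1.76-fold, 1.55 to 2.01). Slc48a1, a haem transporter, was 1.64-fold (1.54 to 1.74) higher in Nrf2-EGFP. Textbook targets named after their values were seen lay on the same side by less. Hmox1 was 1.5-fold (1.37 to 1.63), Srxn1 1.46-fold (1.34 to 1.59) and Txnrd1 1.38-fold (1.34 to 1.43) higher in Nrf2-EGFP, and the interval of Nqo1 included 1. The called targets were Gstm1 (2.27-fold, 1.74 to 2.97) and Mgst1 (3.94-fold, 2.47 to 6.53), both higher in ARPC4 ko, beside 2.05% of all genes. Neither was called with a filter of 10 CPM or a pseudocount of 2 CPM. Glutathione transferases as a family had a median log2 ratio of 0.18 over 13 genes, and -0.31 over the 7 of at least 10 CPM. None of 20 genes of NRF2 and its regulators was called (median -0.10, and 0.02 with scaling to total counts).

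Stress and lipid synthesis genes were shifted by small amounts towards Nrf2-EGFP. Integrated stress response and amino acid genes, which ATF4 drives when amino acids run short, had 38 of 46 below 0 (median -0.31). Of the 46, 3 were called, all higher in Nrf2-EGFP, beside 0.954% of all genes. Besides Bcat1 these were Vldlr, a lipoprotein receptor, with 13.8, 37.0 and 49.7 CPM (2.69-fold, 2.37 to 3.06), and the hormone gene Fgf21, with 28 counts against 82. Chaperones of the endoplasmic reticulum had 22 of 24 below 0 (median -0.26) and no call. Xbp1, a factor of the unfolded protein response, had 37.4, 62.3 and 69.5 CPM (1.67-fold, 1.53 to 1.81). Of 30 cholesterol genes 26 were below 0 (median -0.33). Of the 30, 1 was called in each direction, beside 2.05% of all genes higher in ARPC4 ko and 0.954% higher in Nrf2-EGFP. Abca1, the exporter of cellular cholesterol, was the call higher in ARPC4 ko, with 52 counts against 11 (4.87-fold, 2.51 to 10.3). A filter of 10 CPM or a pseudocount of 2 CPM left only the call higher in Nrf2-EGFP. Barrier lipid and fatty acid genes had 28 of 35 below 0 (median -0.31) and no call. Fasn, the fatty acid synthase, had 885 CPM in ARPC4 ko, 1565 in Nrf2-EGFP and 1509 in wt, a 1.77-fold (1.74 to 1.80) difference.

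Growth-related lists differed in the share of their members that was called. None of 49 DNA replication and cell cycle genes was called, and their median log2 ratio was 0.01 (-0.01 with DESeq2 size factors). Cytosolic ribosomal protein genes had no call among 80, but 77 of them were below 0 (median -0.19, and -0.08 with scaling to total counts). Of 34 p53 targets and cell cycle inhibitors, 3 were called higher in ARPC4 ko, beside 2.05% of all genes. Trp53inp1, a stress-induced p53 target, had 30.9, 9.43 and 19.5 CPM (3.28-fold, 2.83 to 3.82). Btg2, an antiproliferative gene, was 2.40-fold (2.08 to 2.78) higher and Gdf15 had 27 counts against 6. Among 18 VEGF and lymphangiogenic genes, Angpt1 was called higher in ARPC4 ko and Ccbe1 higher in Nrf2-EGFP, beside 2.05% and 0.954% of all genes. Ccbe1, needed to process VEGF-C, had 23.6, 54.7 and 4.24 CPM (2.31-fold, 2.1 to 2.56). Wnt5a, a non-canonical Wnt ligand, had 19 counts against 82 and was the member called among 36 Wnt pathway genes, higher in Nrf2-EGFP. The share of all genes called in that direction was 0.954%. Of 35 axon guidance genes, Sema3d and Robo2 were called higher in ARPC4 ko, and Sema5a and Ephb2 higher in Nrf2-EGFP. Of all genes, 2.05% and 0.954% were called in these directions. With a filter of 10 CPM, Angpt1, Wnt5a, Sema3d and Robo2 were left out. None of 19 EGF family, 18 Notch pathway and 10 AP-1 genes was called.

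**Figure D5:**
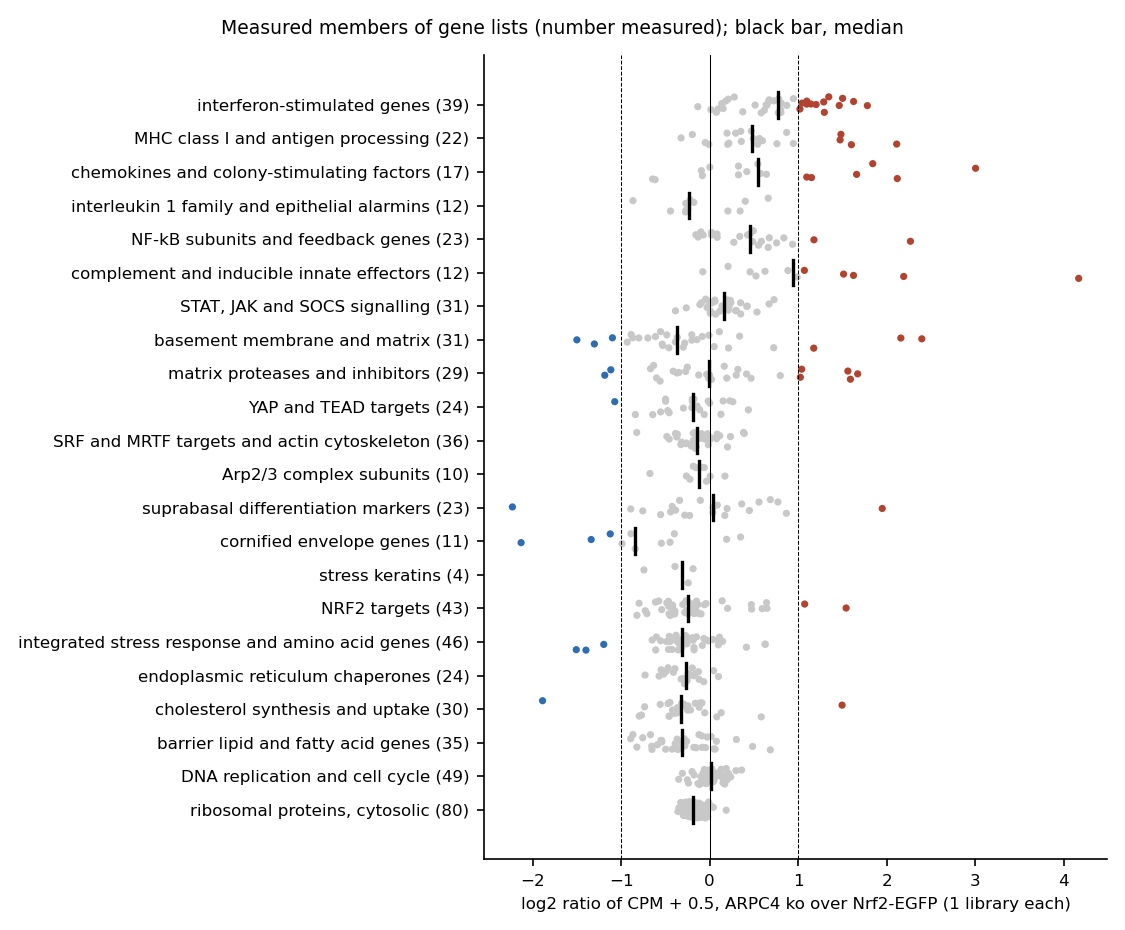
Each point is a measured member of a gene list, placed by its log2 ratio (CPM + 0.5, ARPC4 ko over Nrf2-EGFP), with the number measured in parentheses and a black bar at the median. Red and blue points are called genes, and dashed lines mark a log2 ratio of 1 and -1. Innate immune lists except the interleukin 1 family have medians above 0 (0.78 for interferon-stimulated genes), while basement membrane, cornified envelope (-0.84), NRF2 target, stress and lipid lists have medians below 0.

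Some called genes lay side by side in the genome. Of the 353 called genes, 58 (16.4%) fell in 27 runs of neighbouring compared genes called in the same direction, 17 runs higher in ARPC4 ko and 10 in Nrf2-EGFP. Runs of 4 were found at the Oas1 cluster (chromosome 5, 120800194 to 120907521, Oas1c, Oas1b, Oas1g and Oas1a) and the H2-Q cluster (chromosome 17, 35379617 to 35443773), both higher in ARPC4 ko. Such genes are near copies, so their counts are not independent. Pairs included Cxcl1 with Cxcl2, Gbp3 with Gbp2, Evc with Evc2 and Gpc4 with Gpc3, all higher in ARPC4 ko. Padi4 with Padi3, Serpinb2 with Serpinb10 and Sprr2k with Sprr1b were pairs higher in Nrf2-EGFP.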

How the data were processed

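RNA was extracted with TRIzol and stranded mRNA libraries (TruSeq) were read as 65 bp single ends, per the labels' protocols. The submitters' processing notes list the mm10 build, HTSeq, Bowtie 1.1 and TopHat2 2.1.0, with no settings. Neither the annotation release nor the strand setting is stated there, so overlapping and antisense genes may share reads. The deposited values are raw counts per gene, without normalisation. Rows that name no gene (8.22% of entries in ARPC4 ko, 8.48% in Nrf2-EGFP) were left out. Near-identical families (Oas1, Ifit, H2-Q, Gbp, Sprr2, Prl2c, Ctla2) are uncertain. GENCODE M21 (GRCm38, that is mm10) gave coordinates, and symbols for 40340 identifiers.

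TMM factors (edgeR 4.0.16, R 4.3.3) were 1.04 for ARPC4 ko and 0.960 for Nrf2-EGFP. The wt library, scaled by its own factor against ARPC4 ko (0.968), entered no ratio. The log2 ratio used CPM + 0.5, which understates differences of low genes, and the exact interval was Clopper-Pearson, given the sum of both counts. A count of 0 was set to 3 counts only for the least fold given for such genes. Levels, log2 ratios, intervals and calls used the count of 0. On 11745 genes simulated for this comparison with Poisson noise only, all 100 genes simulated with a 3-fold change and all 100 with an 8-fold change were called, as was 1 of 11545 unchanged genes. The changed genes were drawn only from genes with a mean of at least 3 CPM. Recovery of changed genes below that level was not simulated. Alternatives were other scalings (total counts, 3-library TMM, DESeq2 1.42.0 size factors, upper quartile), filters, pseudocounts, fold sizes and a wider interval.

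Named genes were Arpc4 and Nfe2l2, the 15 highest ratios per direction among called genes of at least 10 CPM, the 10 most abundant called genes, genes at 0 in 1 library with at least 20 counts in the other, and up to 6 members per list with the largest ratios. A few genes are not reported here by name, though counts and medians include them. Others were named after their values were seen: Gpc3, Gpc4, Fam102a, Evc2, Glipr1, Gbp2, Irf9, Samd9l, Ifitm3, Cxcl5, Fn1, Hmox1, Srxn1, Txnrd1 and Nqo1. The comparison, the 53 gene lists and the rules were chosen with earlier results of these data known. Symbols of Flg, Lce1d, Mars1, S100p, Ctsv, Trdc, Pi3 and Cldn25 were not matched.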

Additional observations from a re-analysis of the deposited data

How the results depend on the processing

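The number of called genes depended on how low genes were handled. Against 241 genes higher in ARPC4 ko and 112 higher in Nrf2-EGFP, a filter of 10 CPM gave 53 and 59, a pseudocount of 2 CPM 84 and 67, a 1.5-fold rule 705 and 386, and a 4-fold rule 26 and 8. The filter of 10 CPM thus turned the share of calls higher in ARPC4 ko from 68.3% to 47.3%, and the pseudocount of 2 CPM to 55.6%. No filter (268 and 115), a pseudocount of 0.1 CPM (345 and 143), a wider counting interval (240 and 111), 3-library TMM (238 and 114), DESeq2 size factors (235 and 117) and upper quartile factors (250 and 105) stayed within 1.5 times. Scaling to total counts gave 300 and 88 (77.3% higher in ARPC4 ko) and moved the median log2 ratio of all genes from -0.01 to 0.11. It changed the sign of 11 of 54 list medians, among them tight junctions, proteasome subunits and desmosomal and adherens junctions. Among genes covered by the naming rule, none that was called in the main or the other setting changed direction between them. Direction changes of genes without a call were not counted. The genes measured were 218 with the filter of 10 CPM, 311 with 3-library TMM or DESeq2 size factors and 313 with the others. No paired analysis was possible because each genotype has 1 library. Depth limits the low genes, where 3 counts equal 0.125 CPM in ARPC4 ko. The spread between cultures was not measured.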

Other observations

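The gene groups described next were chosen after their values were seen, so their counts and medians are a description only. Of 17 measured circadian clock genes, 4 were called higher in ARPC4 ko and none in Nrf2-EGFP. The share of all genes called higher in ARPC4 ko was 2.05%. The median log2 ratio was 0.31, ARPC4 ko over Nrf2-EGFP, and a filter of 10 CPM left 3 of the 4 calls. Nr1d1, the nuclear receptor REV-ERB alpha, had 23.6 CPM in ARPC4 ko, 7.53 in Nrf2-EGFP and 11.4 in wt (3.13-fold, 2.65 to 3.72). Its relative Nr1d2 had 62.0, 30.4 and 30.1 CPM (2.04-fold, 1.86 to 2.23) and lost its call with DESeq2 size factors or a pseudocount of 2 CPM. The PAR bZIP factors Tef and Dbp were 2.21-fold (2.02 to 2.42) and 3.93-fold (2.55 to 6.24) higher. Hlf, of the same PAR bZIP family, lay on the other side, 1.77-fold (1.54 to 2.05) higher in Nrf2-EGFP. Harvest times are not in the labels.

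Of 22 measured Hox genes, which set position along the body, 18 had a log2 ratio above 0 (median 0.36). Hoxa11, Hoxb3, Hoxb6 and Hoxb8 were called higher in ARPC4 ko and Hoxc13 higher in Nrf2-EGFP. Of all genes, 2.05% and 0.954% were called in these directions. Hoxc13 lost its call with scaling to total counts and with a pseudocount of 2 CPM, and was left out by a filter of 10 CPM. Of the calls higher in ARPC4 ko, 1 was left with that pseudocount and 2 with that filter. Hoxb6 had 22.1 CPM in ARPC4 ko, 10.5 in Nrf2-EGFP and 11.7 in wt (2.1-fold, 1.81 to 2.44). Among IGF2 mRNA-binding proteins and Lin28 genes, Igf2bp1 and Igf2bp3 were called higher in Nrf2-EGFP, whereas Igf2bp2 had 176 and 180 CPM and a ratio whose interval included 1.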
